A study of Mus musculus with 10 samples.

Results

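The genes of this report are *Myc* and 32 genes of ribosome biogenesis, 33 of the 24052 gene symbols listed for each liver, and they were taken by symbol from a list made with earlier results of these data known. Their mRNA was counted by RNA sequencing in the livers of 5 wild-type mice and 5 Ndrg3 LKO mice, all C57BL/6 and fed ad libitum, with 1 library per liver. Ndrg3 LKO mice carried *Ndrg3* alleles from which exon 4 had been deleted by Cre recombinase under the albumin promoter, which acts in hepatocytes, and wild-type littermates were the controls. The methods give an age of 8 to 10 weeks for this tissue and a legend gives 10 to 12 weeks. The comparison asked how the mRNA levels of these genes differ between livers with and without hepatocyte *Ndrg3*.

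Myc is a transcription factor that binds DNA as a dimer with Max, at a short sequence called the E-box, and genes for ribosome production are among its best known targets. Ribosomes are assembled mostly in the nucleolus. RNA polymerase I transcribes the ribosomal RNA precursor, small nucleolar ribonucleoproteins (snoRNPs) of the box C/D and box H/ACA kinds modify it, and assembly factors cut and fold it with ribosomal proteins into the small and the large subunit. In the adult liver hepatocytes rarely divide, and both *Myc* and ribosome production are known to increase when the liver regenerates.

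Levels are given as CPM, a gene's counts scaled by the library total after adjustment with the trimmed mean of M values (TMM), and a difference is the log2 fold change of Ndrg3 LKO over wild-type livers with its standard error (SE). A gene was called higher or lower at an adjusted p under 0.05 in the quasi-likelihood test of edgeR, adjusted after Benjamini and Hochberg over all 11208 genes tested. All 33 members were tested. Total counts ran from 20872262 to 24747870 in wild-type and from 23474693 to 30450057 in Ndrg3 LKO livers, so that 3 counts correspond to between 0.0985 and 0.144 CPM, and counting error is small for members whose lowest count in any liver was 51 (*Myc*). *Ndrg3* counts over the whole gene, which cannot show exon 4 on its own, were lower in every Ndrg3 LKO liver (7.08 to 9.18 CPM) than in any wild-type liver (16.0 to 21.9 CPM). Ndrg3 LKO replicate 5 stood apart from the other 4. The study's own heatmap of gene expression in these tissues had 4 Ndrg3 LKO livers, and the labels do not say which of the 5 was left out. The TMM factor of replicate 5 was 0.904, against 1.20 to 1.36 in replicates 1 to 4 and 0.805 to 0.917 in wild-type livers. Its summed hepatocyte marker level (159700 CPM) lay in the wild-type range (155400 to 198500 CPM), while replicates 1 to 4 had 41070 to 49130 CPM. Results for members that rest on this liver are therefore given with and without it.

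The members did not all move in the same direction. Of the 33 members, 11 were higher and 3 were lower in Ndrg3 LKO livers, which is 42.4% called, against 48.6% of all genes tested (25.6% higher and 23.0% lower). By library size alone 23 members were higher and 0 lower, against 52.1% and 8.97% of all genes tested. The median log2 fold change of the members was 0.38, against 0.03 over all genes tested, and 22 members had a positive and 11 a negative value. The largest rise was that of *Nop56* (1.61) and the largest fall that of *Polr1b* (-0.80). Without Ndrg3 LKO replicate 5, 16 members were higher and 3 lower, against 54.5% of all genes called (28.0% higher and 26.5% lower), and the median was 0.49. The 5 members gained were *Mybbp1a*, *Nop58*, *Tsr1*, *Nop2* and *Gnl3*, and no call was lost. Of the 14 members called in all 10 livers, 11 kept their call whichever liver was left out. Of the others, *Bysl* lost its call only without wild-type replicate 1 (adjusted p = 0.052), *Nop16* lost its call in 6 of the 10 fits with 1 liver left out, and *Rrp12* lost it in 8, with adjusted p up to 0.109.

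**Figure D1:**
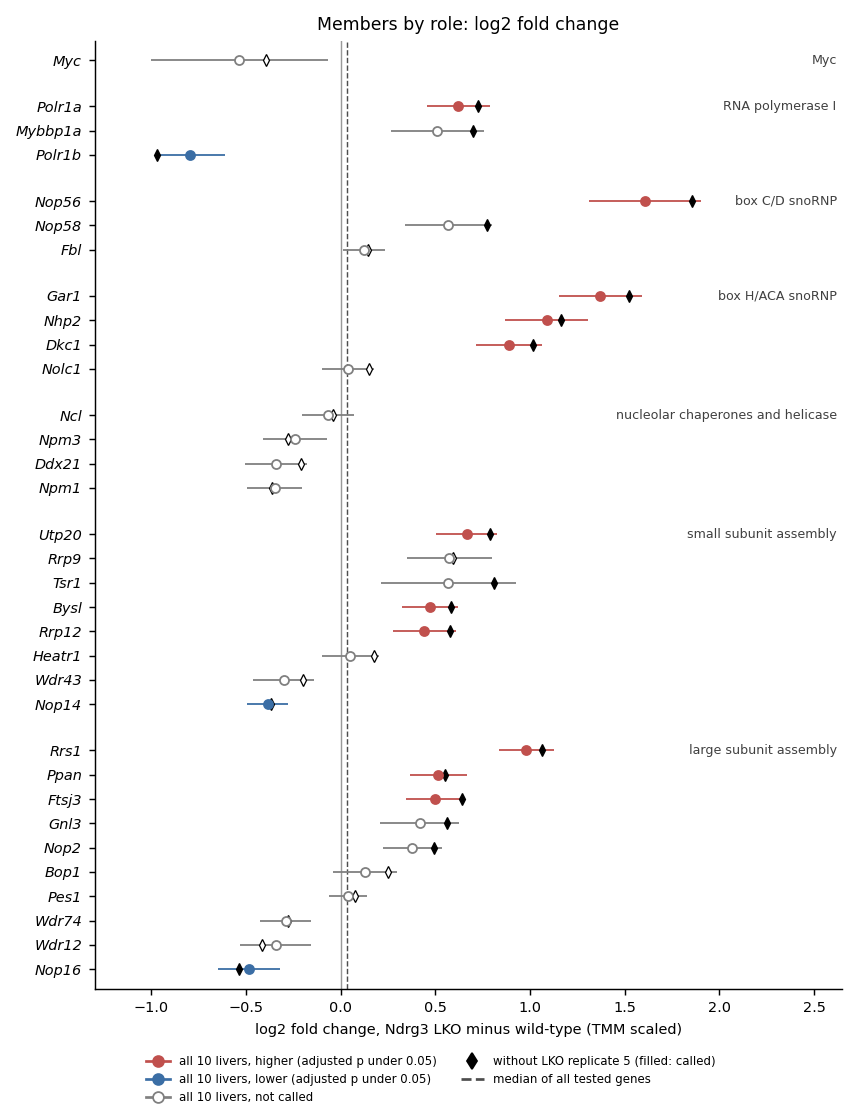
Log2 fold change of each member (x axis, Ndrg3 LKO minus wild-type, TMM scaled), grouped by role. Circles with bars are the estimate and its standard error in all 10 livers, filled when called, diamonds are the estimate without Ndrg3 LKO replicate 5, and the dashed line is the median of all genes tested (0.03). Members run from *Polr1b* at -0.80 to *Nop56* at 1.61, and both directions occur among the polymerase and assembly factor genes.

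How the libraries were scaled mattered for the direction of the smaller differences. When counts were divided by library size alone, the median over all genes tested moved from 0.03 to 0.56 on the log2 scale, and 61.0% of genes were called (52.1% higher and 8.97% lower). The members moved with it. Then 23 members were higher, none was lower by edgeR at an adjusted or an unadjusted p under 0.05, and their median was 0.93. The 3 members that were lower under TMM had log2 fold changes of -0.32 (*Polr1b*), 0.14 (*Nop14*) and 0.03 (*Nop16*) by library size alone, so that the sign of *Nop14* and *Nop16* turned while that of *Polr1b* did not. Measured from the median of all genes, the same 3 values were -0.88, -0.42 and -0.54. The 11 members higher under TMM were higher under both scalings, from 0.44 (*Rrp12*) to 1.65 (*Nop56*) above that median.

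**Figure D2:**
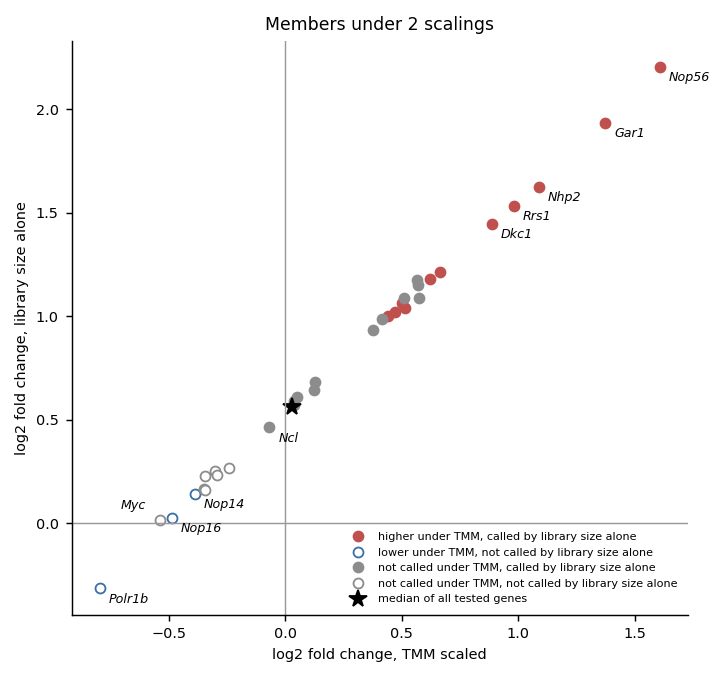
Log2 fold change of each member under TMM (x axis) and under library size alone (y axis), with the median of all genes tested as a star at 0.03 and 0.56. Filled points were called by library size alone. The points lie along a line shifted upward with the star, and the members in the upper left, among them *Nop14*, *Nop16*, *Ncl* and *Myc*, change sign between the axes.

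The member genes were searched for the canonical E-box, the letters CACGTG, which read the same on both strands. The window ran from 250 bases before to 1000 bases after the annotated gene start on mm9, the build of the files, in the GENCODE annotation of that assembly. The motif occurred in 22 of 33 members (66.7%) and in 2435 of 10290 tested genes with an annotated start (23.7%). Sites of 30 bases are printed 5′ to 3′ on the gene's strand, with the motif in capitals, for the members with the largest rises that hold the motif, for the only member that fell and holds it, and for a pair of abundant members that were not called. Where a member other than *Nop56* holds several sites, 1 of them is shown, and the site of *Npm1* ends with another copy of the motif, left in lower case.

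Nop56, exon, chr2:130100367-130100396, + strand: caggttctgctgCACGTGctgttcgagcat
Nop56, intron, chr2:130100526-130100555, + strand: accgcgtgttccCACGTGgccgaccgcacc
Gar1, untranslated exon, chr3:129534029-129534058, - strand: aggctggagacgCACGTGgcgcggtgagtg
Rrs1, untranslated exon, chr1:9535505-9535534, + strand: tccggacgtccgCACGTGgttgccggttta
Dkc1, exon, chrX:72341961-72341990, + strand: ccttgccacagcCACGTGgagaacccgaag
Utp20, untranslated exon, chr10:88289505-88289534, - strand: cggcactaactaCACGTGaggaaaagcagg
Polr1b, exon, chr2:128926934-128926963, + strand: ctgacgcgggcgCACGTGgactccttcaac
Ncl, intron, chr1:88255369-88255398, - strand: tgcgcggcccgcCACGTGctctgcggagcc
Npm1, intron, chr11:33062371-33062400, - strand: aacccctaggagCACGTGgttgccacgtgg

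The motif was found in 14 of the 19 members that were not called (73.7%) and in 7 of the 11 that were higher (63.6%), and 1 of the 3 lower members held it. Among all genes tested the shares were 24.8% of higher, 21.7% of lower and 24.0% of uncalled genes. The 22 members with the motif had a median log2 fold change of 0.43 and the 11 without it 0.05, against 0.07 and 0.02 over all genes tested. *Ncl* held 5 copies, all annotated as intronic and the most of any member, with a log2 fold change of -0.07. In the RefSeq promoter table, which is on GRCm38.p6 and covers 250 bases before to 50 bases after the start, 27 members matched by symbol and 6 of them held the motif (22.2%), against 8.09% of all promoters in the table and 12% of those of tested genes. A match of these letters is a description of the sequence and not a measured binding site.

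*Myc* itself was low and variable. Its CPM was 16.5, 5.63, 7.36, 17.1 and 3.04 in wild-type replicates 1 to 5 and 4.18, 7.14, 13.4, 4.97 and 4.49 in Ndrg3 LKO replicates 1 to 5. All of the latter lay inside the wild-type range. The log2 fold change was -0.54 (SE 0.47, edgeR adjusted p = 0.36), and a 2-sided exact permutation test of mean log2(CPM + 1) over all splits of the 10 livers into 2 groups of 5 gave p = 0.476, where the smallest p possible was 0.00794. The coefficient of variation of *Myc* among wild-type livers was 65.1%, the highest of all members, and the next highest was that of *Nhp2* at 28.9%. Left-out fits gave log2 fold changes between -0.90 and -0.24, and library size alone gave 0.02, so neither a rise nor a fall of *Myc* mRNA was shown, and a difference of this size was not detectable with this spread.

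Both large subunits of RNA polymerase I changed, in opposite directions. *Polr1a*, which encodes the largest subunit, had 21.7, 19.8, 17.6, 21.3 and 22.4 CPM in wild-type livers and 24.2, 43.3, 34.3, 31.9 and 24.5 CPM in Ndrg3 LKO livers. *Polr1b*, which encodes the next largest subunit, had 14.6, 14.2, 14.3, 16.8 and 17.4 CPM in wild-type livers and 8.29, 7.26, 8.25, 7.19 and 13.7 CPM in Ndrg3 LKO livers. The groups did not overlap for either gene, and Ndrg3 LKO replicate 5 was the liver nearest to wild-type for *Polr1b*. The log2 fold changes were 0.62 for *Polr1a* (SE 0.17, edgeR adjusted p = 0.00901) and -0.80 for *Polr1b* (SE 0.18, edgeR adjusted p = 0.00421). Without replicate 5 they were 0.72 and -0.97. *Mybbp1a*, which encodes a nucleolar protein that binds the transcription factor Myb, did not pass with all livers (0.51, edgeR adjusted p = 0.106) and was higher without replicate 5 (0.70, edgeR adjusted p = 0.00842).

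The ratio of *Polr1a* to *Polr1b* counts within a liver does not depend on how libraries are scaled. It was 1.23 to 1.49 in wild-type livers, 2.92 to 5.96 in Ndrg3 LKO replicates 1 to 4 and 1.79 in replicate 5. The groups did not overlap, with replicate 5 between them. Of the remaining RNA polymerase I genes listed, which comprise further subunits and initiation factors, 1 of 13 was higher and 1 was lower, with a median log2 fold change of 0.08. That is 15.4% called, against 48.6% of all genes tested. *Ubtf*, which encodes a factor that binds and bends the DNA of the ribosomal RNA genes, was higher at 0.30 (edgeR adjusted p = 0.0489), a call lost in 8 of the 10 fits with 1 liver left out (adjusted p up to 0.104). *Polr1c*, a subunit shared with RNA polymerase III, was lower at -0.56 (edgeR adjusted p = 0.00708), and stood at -0.05 by library size alone.

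**Figure D3:**
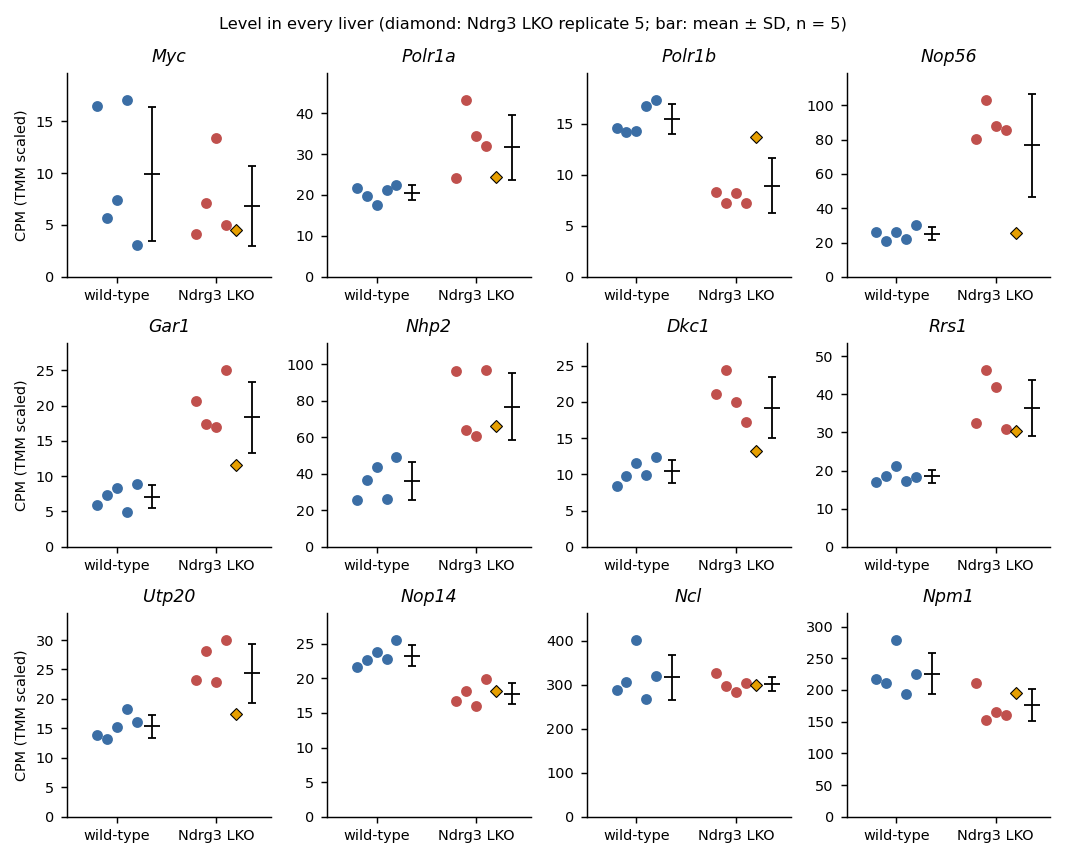
Level of 12 members in every liver (y axis, TMM-scaled CPM from 0), with wild-type livers in blue, Ndrg3 LKO replicates 1 to 4 in red and replicate 5 as an orange diamond, and bars for the mean and SD of 5 livers. *Gar1*, *Nhp2*, *Dkc1*, *Rrs1*, *Polr1a*, *Polr1b* and *Nop14* show no overlap between groups, and in *Nop56* and *Utp20* only replicate 5 lies in the wild-type range.

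The box C/D snoRNP, which methylates ribose in ribosomal RNA, has a core of Nop56, Nop58, fibrillarin and a small RNA-binding protein. *Nop56* had 26.4, 21.0, 26.1, 22.0 and 30.3 CPM in wild-type livers and 80.5, 103, 88.1, 85.5 and 25.5 CPM in Ndrg3 LKO livers. Replicates 1 to 4 lay far above every wild-type liver, and replicate 5 lay among them. The log2 fold change was 1.61 (SE 0.30, edgeR adjusted p = 0.0011) with all livers and 1.85 (SE 0.14, edgeR adjusted p = 9.72e-07) without replicate 5, from means of 25.2 ± 3.73 CPM (SD, n = 5) in wild-type and 89.3 ± 9.75 CPM (SD, n = 4) in replicates 1 to 4.

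The other core members rose less or did not pass. *Nop58* had 21.4 to 33.1 CPM in wild-type livers, 35.9 to 43.8 CPM in Ndrg3 LKO replicates 1 to 4 and 17.5 CPM in replicate 5, below every wild-type liver. Its log2 fold change was 0.57 with all livers (edgeR adjusted p = 0.0593) and 0.77 without replicate 5 (edgeR adjusted p = 9.05e-04), and it also passed without wild-type replicate 5 (0.70, edgeR adjusted p = 0.0374). *Fbl*, which encodes the methyltransferase fibrillarin, was at 47.6 ± 3.52 and 51.8 ± 5.80 CPM (SD, n = 5 each), with a log2 fold change of 0.12 (edgeR adjusted p = 0.387). The ratio of *Nop56* to *Nop58* counts was 0.855 to 1.23 in wild-type livers, 1.84 to 2.38 in Ndrg3 LKO replicates 1 to 4 and 1.46 in replicate 5. The 2 groups did not overlap in this ratio, replicate 5 included, whereas the ratio of *Nop56* to *Fbl* in replicate 5 (0.487) lay in the wild-type range (0.445 to 0.587).

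*Nop56* overlaps an exon of *Idh3b* on the opposite strand, and the strand setting of the counting was not given in the sources used here. *Idh3b* was at 208 CPM in wild-type and 220 CPM in Ndrg3 LKO livers, with a log2 fold change of 0.08 (edgeR adjusted p = 0.622). The ratio of *Nop56* to *Idh3b* counts was 0.10 to 0.14 in wild-type livers and 0.39 to 0.42 in Ndrg3 LKO replicates 1 to 4. In replicate 5 it was 0.12, inside the wild-type range. In all, 14 members overlap an exon of a gene on the opposite strand, 6 of them among the called (*Polr1a*, *Nop56*, *Dkc1*, *Nhp2*, *Nop14* and *Bysl*), and reads of such pairs cannot be told apart if strand was not used. Small RNA genes lie within the bounds of 8 members, *Nop56* with 4 of them included.

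The box H/ACA snoRNP converts uridine to pseudouridine in ribosomal RNA. Of the 4 members in this group 3 were higher (75% called, against 48.6% of all genes tested, with 25.6% higher). No other group of members had as large a share called higher, but 4 genes are few. *Gar1*, a core protein, had 5.96, 7.34, 8.37, 4.97 and 8.82 CPM in wild-type livers and 20.6, 17.4, 16.9, 25.1 and 11.6 CPM in Ndrg3 LKO livers. *Nhp2*, another core protein, had 25.5, 36.6, 43.5, 26.2 and 49.1 CPM in wild-type livers and 96.3, 64.1, 60.6, 97.0 and 66.3 CPM in Ndrg3 LKO livers. *Dkc1*, which encodes the pseudouridine synthase dyskerin, had 8.38, 9.73, 11.5, 9.94 and 12.4 CPM in wild-type livers and 21.1, 24.4, 20.03, 17.2 and 13.3 CPM in Ndrg3 LKO livers. In all 3 genes every Ndrg3 LKO liver, replicate 5 included, lay above every wild-type liver, as was so for 15.6% of all genes tested. The log2 fold changes were 1.37 for *Gar1* (SE 0.22, edgeR adjusted p = 4.82e-04), 1.09 for *Nhp2* (SE 0.22, edgeR adjusted p = 0.00182) and 0.89 for *Dkc1* (SE 0.18, edgeR adjusted p = 0.00169). *Nop10*, a further core protein, is not a member and was counted among the further small subunit genes. It was not called (0.33, edgeR adjusted p = 0.165), with 48.6 to 78.6 CPM in wild-type and 52.9 to 96.5 CPM in Ndrg3 LKO livers.

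*Nolc1*, a phosphoprotein that accompanies snoRNPs between the nucleolus and other nuclear bodies, was at 49.6 ± 6.84 and 50.9 ± 7.42 CPM (SD, n = 5 each), with a log2 fold change of 0.04 (edgeR adjusted p = 0.836). Within a liver the ratio of *Gar1* to *Nolc1* counts was 0.113 to 0.160 in wild-type and 0.301 to 0.445 in Ndrg3 LKO livers. That of *Nhp2* to *Nolc1* was 0.595 to 0.830 in wild-type and 1.09 to 1.75 in Ndrg3 LKO livers. Neither pair of ranges overlapped. *Dkc1* overlaps an exon of *Mpp1* on the opposite strand, and *Mpp1* was itself higher (1.28, edgeR adjusted p = 1.59e-04), so the value of *Dkc1* is less certain than that of *Gar1*, which has no such overlap. *Nhp2* overlaps an exon of *Rmnd5b* on the opposite strand. *Rmnd5b* was at 11.6 CPM in wild-type and 11.75 CPM in Ndrg3 LKO livers (log2 fold change 0.01, edgeR adjusted p = 0.944).

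**Figure D4:**
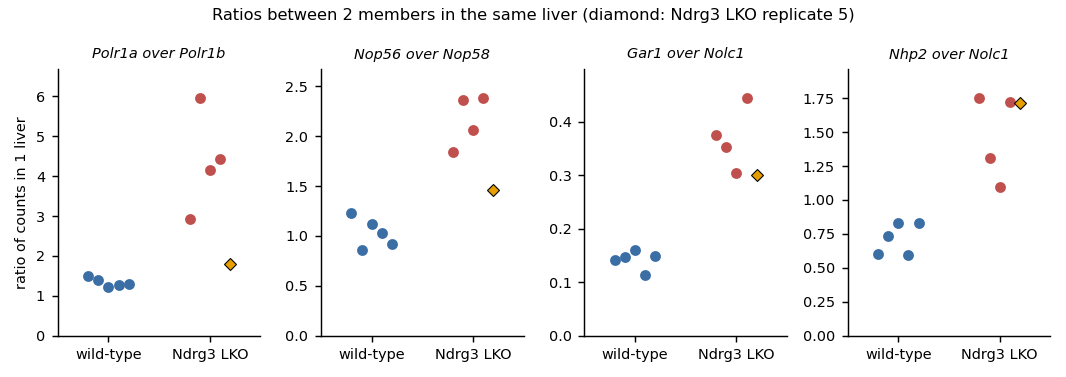
Ratio of the counts of 2 members in the same liver (y axis, from 0), for wild-type livers (blue), Ndrg3 LKO replicates 1 to 4 (red) and replicate 5 (orange diamond). In the 4 ratios plotted the groups do not overlap, and replicate 5 is the lowest Ndrg3 LKO liver in the first 3. The pairs were chosen after their values were seen. The ratio of *Nop56* to *Fbl*, which is not plotted, overlapped between the groups through replicate 5.

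Under TMM with all livers, none of the 4 genes for nucleolar chaperones and the helicase *Ddx21* was called by edgeR, with 1 at an unadjusted p under 0.05, and none by limma, while DESeq2 called 1 (*Npm1*). *Ncl* (nucleolin) had a log2 fold change of -0.07 (edgeR adjusted p = 0.707), *Npm1* (nucleophosmin) -0.35 (edgeR adjusted p = 0.0651), *Npm3* -0.24 (edgeR adjusted p = 0.248) and *Ddx21*, an RNA helicase of the nucleolus, -0.34 (edgeR adjusted p = 0.0973). By library size alone these values were 0.46, 0.17, 0.27 and 0.23, of which *Ncl* passed (edgeR adjusted p = 0.0222), so that their signs turned. Measured from the median of all genes, they were -0.10, -0.39, -0.29 and -0.33 by library size alone. Under TMM they were -0.10, -0.38, -0.275 and -0.37 from its median, so all 4 lay below the median under both scalings. Leaving out wild-type replicate 4 under TMM brought *Npm1* to -0.40 (edgeR adjusted p = 0.0465). These genes include the most abundant members. Per kilobase of exon, wild-type levels were 84.6 CPM for *Npm1*, 41.0 for *Fbl* and 38.3 for *Ncl*, against 6.14 for *Nop56*, 4.14 for *Gar1* and 1.74 for *Utp20*, the lowest. In Ndrg3 LKO livers *Nop56* reached 18.7 CPM per kilobase and *Npm1* was at 66.3. The length used was that of all annotated exons of a gene joined, 8257 bases for *Ncl* and 1161 for *Fbl*, so comparisons between genes are rough. Before division by length, *Ncl* was at 316.5 and *Fbl* at 47.6 CPM in wild-type livers.

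Of the 8 genes of small subunit assembly, 3 were higher and 1 was lower (50% called, against 48.6% of all genes tested). *Utp20*, a large scaffold protein of the early small subunit precursor, had 13.9, 13.2, 15.2, 18.3 and 16.2 CPM in wild-type livers and 23.3, 28.1, 22.9, 30.1 and 17.4 CPM in Ndrg3 LKO livers. *Bysl*, an assembly factor of the late precursor, had 16.8, 23.3, 20.3, 20.2 and 25.6 CPM in wild-type livers and 31.6, 31.2, 30.1, 32.1 and 22.1 CPM in Ndrg3 LKO livers. *Rrp12*, which helps to export the precursors, had 10.9, 12.9, 15.3, 13.8 and 14.1 CPM in wild-type livers and 17.6, 20.2, 18.6, 22.2 and 12.1 CPM in Ndrg3 LKO livers. In each of these genes replicates 1 to 4 lay above every wild-type liver and replicate 5 lay in the wild-type range. The log2 fold changes were 0.66 for *Utp20* (SE 0.16, edgeR adjusted p = 0.0052), 0.47 for *Bysl* (SE 0.15, edgeR adjusted p = 0.019) and 0.44 for *Rrp12* (SE 0.17, edgeR adjusted p = 0.0431). Without replicate 5 they were 0.79, 0.58 and 0.58.

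*Nop14*, a component of the small subunit processome, was the lower gene of this group. It had 21.6, 22.7, 23.8, 22.7 and 25.6 CPM in wild-type livers and 16.7, 18.1, 16.1, 19.95 and 18.1 CPM in Ndrg3 LKO livers. The groups did not overlap, and replicate 5 lay among the other Ndrg3 LKO livers. The log2 fold change was -0.39 (SE 0.11, edgeR adjusted p = 0.0112), and 0.14 by library size alone, as given above. Of the members that did not pass, *Heatr1* was at 0.05, *Wdr43* at -0.30, *Rrp9*, a protein of the box C/D particle that guides early cleavage, at 0.57 (edgeR adjusted p = 0.051) and *Tsr1*, a late assembly factor, at 0.57. *Parp3*, on the strand opposite to *Rrp9* and overlapping it, was itself higher at 0.60 (edgeR adjusted p = 0.0311). *Rrp9* passed without wild-type replicate 5, Ndrg3 LKO replicate 2 or Ndrg3 LKO replicate 3, each with a log2 fold change of 0.69. *Tsr1* ranged from 4.01 CPM in replicate 5 to 22.3 CPM in replicate 2 among Ndrg3 LKO livers, around the wild-type range of 7.19 to 10.3 CPM, and *Srr*, which overlaps it on the opposite strand, was lower at -1.83 (edgeR adjusted p = 0.00136).

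Of the 10 genes of large subunit assembly, 3 were higher and 1 was lower (40% called, against 48.6% of all genes tested). *Rrs1*, which helps to bring the smallest ribosomal RNA into the large subunit precursor, had 17, 18.5, 21.1, 17.4 and 18.4 CPM in wild-type livers and 32.4, 46.5, 42.0, 30.9 and 30.4 CPM in Ndrg3 LKO livers. All of the latter exceeded all of the former, and replicate 5 did not stand apart. Its log2 fold change of 0.98 (SE 0.15) had the smallest adjusted p of the members in all 10 livers, 2.95e-04 from edgeR's quasi-likelihood test. *Ppan*, an early assembly factor, had 15.0, 13.2, 11.7, 13.7 and 14.0 CPM in wild-type livers and 20.5, 17.2, 14.8, 25.2 and 18.9 CPM in Ndrg3 LKO livers. *Ftsj3*, a ribosomal RNA methyltransferase, had 62.8, 66.4, 68.3, 63.4 and 72.0 CPM in wild-type livers and 90.2, 99.4, 106, 114 and 62.1 CPM in Ndrg3 LKO livers. The groups overlapped in both, through replicate 3 for *Ppan* and through replicate 5 for *Ftsj3*, which there lay just below every wild-type liver. The log2 fold changes were 0.52 for *Ppan* (SE 0.15, edgeR adjusted p = 0.0147) and 0.50 for *Ftsj3* (SE 0.15, edgeR adjusted p = 0.0177). Without replicate 5 they were 0.55 and 0.64.

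*Nop16*, a nucleolar protein of the large subunit precursor, had 62.1, 66.4, 69, 45.2 and 74.1 CPM in wild-type livers and 50.5, 34.2, 39.7, 47.0 and 54.9 CPM in Ndrg3 LKO livers. The groups overlapped through wild-type replicate 4. The log2 fold change was -0.49 (SE 0.17, edgeR adjusted p = 0.0283), the call that 6 left-out fits lost, with adjusted p up to 0.0729 there, and 0.03 by library size alone. *Pes1*, *Bop1* and *Wdr12*, whose products form a complex needed to process the large subunit RNA, were not called, with log2 fold changes of 0.04, 0.13 and -0.34. The other members not called were *Nop2*, an RNA methyltransferase (0.38, edgeR adjusted p = 0.0642), *Wdr74* (-0.29) and *Gnl3*, the GTPase nucleostemin (0.42, edgeR adjusted p = 0.115). *Glt8d1*, which overlaps *Gnl3* on the opposite strand, was higher at 0.44 (edgeR adjusted p = 0.0397). *Nop2* passed without Ndrg3 LKO replicate 5 (0.49) or wild-type replicate 5 (0.49), *Gnl3* passed without the same livers (0.56 and 0.57), and *Wdr74* passed without Ndrg3 LKO replicate 4 (-0.36, edgeR adjusted p = 0.0399).

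**Figure D5:**
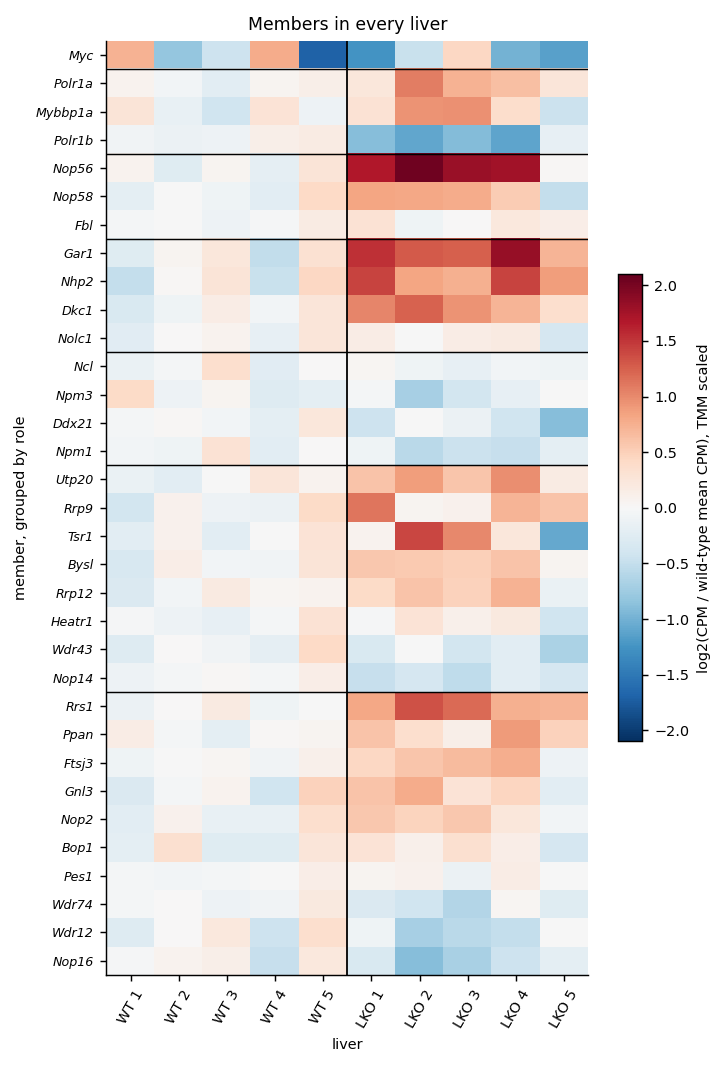
Log2 of the CPM of each member (rows, in the role order *Myc*, RNA polymerase I, box C/D, box H/ACA, chaperones and helicase, small subunit, large subunit) over its wild-type mean, in each liver (columns). Replicates 1 to 4 share the rises of *Nop56*, *Gar1*, *Nhp2*, *Dkc1* and *Rrs1*, and replicate 5 is paler or reversed in many rows.

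Across the set, the 2 groups of livers did not overlap for 5 higher and 2 lower members, against 15.6% and 15.9% of all genes tested (31.5% in either direction). Without Ndrg3 LKO replicate 5 they did not overlap for 12 higher and 2 lower members, against 21.6% and 22.6% (44.3% in either direction). Replicate 5 lay inside the wild-type range for 14 members (42.4%), against 34.5% of all genes tested, and for 4 of the 11 members called higher (*Nop56*, *Utp20*, *Rrp12* and *Bysl*), against 19.7% of all genes called higher. In replicates 1 to 4, between 10 and 12 members lay inside the wild-type range (30.3 to 36.4%), against 27.5 to 30% of all genes tested. The summed level of the 33 members was 1253 to 1537 CPM in wild-type livers, 1553 to 1652 CPM in Ndrg3 LKO replicates 1 to 4 and 1305 CPM in replicate 5. By library size alone the same sums were 1067 to 1266 CPM, 1972 to 2171 CPM and 1178 CPM.

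The remaining genes of the pathway were split between directions under TMM. Of 92 further genes of ribosome biogenesis, 15 were higher and 17 lower (34.8% called), against 56 and 2 by library size alone, with a median log2 fold change of 0.03 under TMM, the same as over all genes tested. Of all genes tested, 48.6% were called under TMM and 61.0% by library size alone (52.1% higher and 8.97% lower). Among 39 further small subunit genes, 4 were higher, led by *Nob1* (0.70), *Ltv1* (0.69) and *Pwp2* (0.62), and 10 were lower, led by *Rcl1* (-1.81), *Rrp7a* (-0.81) and *Ddx49* (-0.78). *Rcl1*, a cyclase-like protein of the small subunit processome, went from 233 ± 33 to 66.5 ± 8.45 CPM (SD, n = 5 each). It was also lower by library size alone (-1.29, edgeR adjusted p = 4.89e-05). *Rrp7a* and *Ddx49* did not pass by library size alone.

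Among 40 further large subunit genes, 10 were higher and 6 lower (40% called, against 48.6% of all genes tested). *Eif6*, which keeps the new large subunit from joining the small one, went from 79.7 ± 18.3 to 186 ± 34.0 CPM (SD, n = 5 each; log2 fold change 1.22). *Ddx56*, an RNA helicase (1.21), and *Pelp1*, a member of a nucleolar and nuclear complex that matures the large subunit (0.96), rose with it. The largest falls were those of *Nsa2* (-0.90), *Nle1* (-0.86) and *Ddx54* (-0.54). *Nle1* lost its call without wild-type replicate 5 (-0.58), Ndrg3 LKO replicate 2 (-0.72) or Ndrg3 LKO replicate 4 (-0.76), and *Ddx54* without Ndrg3 LKO replicate 1 (-0.49). By library size alone *Nle1* and *Ddx54* did not pass.

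Of 12 genes of the Myc network 10 were tested, of which 2 were higher and 4 lower under TMM but 4 higher and 1 lower by library size alone, and *Mycn* and *Mxd3* fell under the filter on low counts. The share called under TMM was 60%, against 48.6% of all genes tested. By library size alone 52.1% of all genes tested were higher and 8.97% lower. *Max*, the obligate partner, went from 26.1 ± 3.90 to 15.5 ± 4.85 CPM (SD, n = 5 each), a log2 fold change of -0.76 (edgeR adjusted p = 0.00903). *Mycl*, a paralog of *Myc*, was at -0.97, and *Mxd4*, which competes with Myc for Max, at -1.27 (edgeR adjusted p = 1.73e-04). *Zbtb17*, also known as Miz-1, was higher at 1.03 and *Mga*, a large Max-binding repressor, at 0.91. By library size alone *Max* was at -0.27 and *Mycl* at -0.48 and neither passed, while *Mxd4* did at -0.77.

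Of 20 known Myc targets outside the ribosome, 7 were higher and 2 lower (13 and 0 by library size alone), with a median log2 fold change of 0.10. The share called under TMM was 45%, against 48.6% of all genes tested, of which 52.1% were higher and 8.97% lower by library size alone. *Ccnd1*, cyclin D1, was higher in every Ndrg3 LKO liver (139 to 425 CPM) than in any wild-type liver (6.58 to 27.0 CPM), with a log2 fold change of 4.11 (SE 0.40). *Ccnd2* was higher at 1.604 and *Mthfd2*, a mitochondrial folate enzyme, at 1.51. *Shmt2*, another enzyme of that pathway, was lower at -0.70 and *Paics*, of purine synthesis, at -0.69, and neither of these falls passed by library size alone. In the NDRG family, *Ndrg2* was lower at -0.94 and *Ndrg1*, a gene known to be repressed by Myc, higher at 0.52 (edgeR adjusted p = 0.0233), and *Ndrg4* was not tested.

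Markers of other cell types moved between the groups as well. In bulk liver, fewer cells of a type and less RNA per cell cannot be told apart. Of 12 hepatocyte markers 8 were lower, with the summed levels given above. Of 10 macrophage and leukocyte markers 6 were tested and all 6 were higher, and their summed level was 58.2 to 144 CPM in wild-type livers, 114 to 324 CPM in Ndrg3 LKO replicates 1 to 4 and 145 CPM in replicate 5. The T cell gene *Cd3e* was at 0.0596 to 0.472 CPM over all livers. Stellate cell and fibroblast markers (4 of 6 higher, 20.3 to 45.5 CPM against 42.7 to 81.8 CPM), endothelial markers (5 of 6 higher, 49.4 to 63.9 CPM against 99.2 to 140 CPM) and cholangiocyte markers (1 of 5 tested higher and 1 lower) differed too. Proliferation markers were higher in 7 of 8 tested, and without Ndrg3 LKO replicate 5 in 5 of the 6 that then reached the filter. Their summed level was 35.8 to 47.3 CPM in wild-type livers, 42.0 to 122 CPM in replicates 1 to 4 and 156 CPM in replicate 5, the liver in which *Nop56*, *Utp20*, *Bysl* and *Rrp12* lay in the wild-type range. The filter was 1 CPM in 5 or more livers. A marker below that in every wild-type liver was therefore tested only if every Ndrg3 LKO liver reached it. The shares called higher among the tested markers are thus partly set by the filter. Over all genes tested 25.6% were higher and 23.0% lower. The part of these cell types and of proliferation in the members' differences was not tested.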

How the data were processed

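The deposited values were used as raw read counts per gene, 1 table per liver, because every value was a whole number and totals differed between livers, although the files are titled CPM. The authors prepared stranded mRNA libraries, aligned paired reads to mm9 and counted them per gene, both with STAR; the submitters' processing notes name STAR 2.7.3a, Trim Galore 0.6.4 and Cufflinks 2.2.1, and the methods another STAR version. The annotation and strand setting of the counting are not given in the sources used here.

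The test took in genes that reached 1 CPM in 5 or more livers, with edgeR 4.0.16 (R 4.3.3), with TMM scaling and Benjamini-Hochberg adjustment over all genes tested. P-values weigh the difference between the groups against the spread between these livers. No 2 livers of a group differed by as little as counting noise (chi-square per degree of freedom 25.7 or more), and the 3-count limit covers counting error only. Standard errors came from the same fit. The test steps were checked on simulated data in which few genes changed, in directions drawn at random. That check does not cover the choice of scaling, as 48.6% of genes tested were called in these livers. Genes were located on NCBIM37 (mm9) with GENCODE, which held 20945 of the 24052 symbols and all 33 members. Alternatives were DESeq2 1.42.0, limma 3.58.1 on log2(CPM + 1), other scalings and filters, a replicate block and leaving out each liver. Ratios between members were chosen after their values were seen.

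The members and the gene lists were chosen with earlier results of these data known. Within each role every called member was named, with up to 4 given in every liver, and each member that did not pass was named once. From each other list up to 3 called genes with the largest rise and 3 with the largest fall were named.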

Additional observations from a re-analysis of the deposited data

Results flagged for a closer look

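In groups of 5 livers, a liver was listed here when its gap to the nearest of the others exceeded Dixon's 95% critical value on log2(CPM + 1) (0.71 of the group's range). Of 120 groups examined over 60 named genes, 9 held such a liver, and chance alone lists about 1 in 20 groups. Of the 9, 6 were Ndrg3 LKO replicate 5, with 13.7 CPM of *Polr1b*, 25.5 of *Nop56*, 17.5 of *Nop58*, 22.1 of *Bysl*, 15.9 of *Nob1* and 19.0 of *Ltv1*. In each of these 6 genes it stood toward or beyond the wild-type side of the other Ndrg3 LKO livers. The remaining 3 were wild-type livers, with 38.4 CPM of *Pes1* and 7.87 CPM of *Nle1* in wild-type replicate 5 and 10.1 CPM of *Nob1* in wild-type replicate 4.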

How the results depend on the processing

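The count of changed members was 14 with all livers and 12 to 19 when each liver was left out in turn, and that of all genes was 5443 and 4431 to 5962. The same counts for the further ribosome biogenesis genes were 32 and 26 to 38, and for the Myc network and targets 15 and 15 to 18. *Myc* kept a log2 fold change between -0.90 and -0.24 in these fits. By library size alone 23 members and 58 further ribosome biogenesis genes were called, against 61.0% of all genes tested, and *Myc* was at 0.017. A fold change above 2, an absolute log2 above 1, left 3 members, 2301 genes, 3 further ribosome biogenesis genes and 7 Myc network and target genes. Median-of-ratios and upper quartile scaling, no filter, a mean CPM of at least 5, DESeq2 and limma gave 13 to 17 changed members. Besides *Myc*, signs turned by library size alone, where the median of all genes was 0.56, for *Ncl* (0.46), *Npm1* (0.17), *Npm3* (0.27), *Ddx21* (0.23), *Nop14* (0.14), *Wdr43* (0.25), *Wdr12* (0.16), *Nop16* (0.026) and *Wdr74* (0.23). Measured from that median, each of these genes stayed negative, from -0.535 (*Nop16*) to -0.096 (*Ncl*), and *Myc* was at -0.543. With 1 liver left out *Nolc1* ran from -0.015 to 0.147, below 0 without wild-type replicate 1 (-0.015) or 4 (-0.003), and *Ncl* from -0.124 to 0.035, above 0 only without wild-type replicate 3. The cause was not tested.

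The labels give both groups the numbers 1 to 5. Livers of the same number did not deviate together (correlations of -0.357, -0.272, -0.313, -0.176 and 0.0363). These correlations cannot settle whether the numbers pair the samples. Deviations from the mean of 5 livers depend on each other, and Ndrg3 LKO replicate 5 stood apart. The labels do not name a pairing. With the replicate number as a block, 9 members (8 higher and 1 lower), 4412 genes, 26 further ribosome biogenesis genes and 15 Myc network and target genes were called, and *Myc* was at -0.40. The lowest count of any member in any liver was 51 (*Myc*), and the effect of depth was not tested.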
